A study of Mus musculus with 12 samples.

Results

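At embryonic stage E14.5, mouse hearts in which Ino80 had been disrupted in the endothelium were compared with wild-type hearts across all measured genes. The comparison used 6 of the 12 libraries of the study: 3 knockout (KO) hearts, replicates 2, 4 and 1, and 3 wild-type (WT) hearts, replicates 8, 7 and 7.2. They were chosen by their labelled stage and genotype, and each library was made from the bulk RNA of 1 whole heart with a NEBNext Ultra kit. WT replicates 8 and 7 and KO replicates 2 and 4 were littermates of litter 2, while WT replicate 7.2 and KO replicate 1 came from litter 3. The KO hearts carried an endothelial Ino80 disruption described by the labels with Tie2, and the WT hearts carried no disruption that the labels name. The strain, the Cre transgene, the deleted part of Ino80 and the genotype of the WT embryos at the Tie2 transgene are not given in the sources used here. As background, Tie2 is active in endothelium, in the endocardium that lines the heart chambers and in blood cell lineages. Ino80 should thus stay intact in heart muscle, epicardium and other cells that never passed through Tie2 activity, which was not measured here. The remaining 6 libraries, 3 KO and 3 WT hearts of litter 1 at E13.5, entered the same model and are given only beside the E14.5 values.

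INO80 is a multi-subunit remodelling machine that slides nucleosomes, exchanges histone variants and serves transcription, DNA replication and repair. Ino80 is its catalytic ATPase, and YY1 is a DNA-binding partner. At the stage studied here, coronary vessels spread through the ventricular wall and the compact muscle layer thickens. Endothelial and endocardial cells send the muscle growth signals such as neuregulin and insulin-like growth factors.

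The E14.5 libraries held 46556032 to 79247152 counts. Of the 45664 rows of the table, 20691 passed a filter on low counts and were tested. On the first principal component of the 6 hearts (27.7% of the variance) KO replicate 2 lay at 58.7, apart from the others at -33.2 to 7.75. The same heart had the lowest macrophage level and the highest level of p53 targets, both given below. Between 0.491% and 1.77% of the counts of 5 hearts came from globins, and 3.98% in KO replicate 1. Genes of the Y chromosome were expressed in 1 heart of each genotype, WT replicate 7.2 and KO replicate 4. Sarcomere genes had a mean level of 10.02 to 10.36 log2 CPM (CPM being counts scaled to a common library size), while pan-endothelial genes averaged 5.53 to 5.82. These levels show heart muscle in every library and cannot show that the whole heart was taken, which rests on the labels. RNA came from whole hearts, so fewer cells of a type and less RNA per cell cannot be told apart in any value below. Each group is 3 embryos. The p-values set the difference against a spread between embryos that was estimated over all 12 libraries, the E13.5 hearts included.

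Ino80 (chromosome 2, 119373042 to 119477687) was read at 33.9, 31.4 and 30.8 CPM in WT hearts 8, 7 and 7.2, against 27.0, 29.5 and 31.9 CPM in KO hearts 2, 4 and 1. The groups overlapped, and the log2 fold change of KO over WT was -0.12 ± 0.08 (standard error, SE; adjusted p = 0.73). A lower level of the targeted transcript was not detectable with 3 embryos a group. Reads from the entire gene and from all heart cells are pooled in it, so it does not check the labels. The other subunits were close to WT as well. Of the 15 genes of the INO80 complex, 7 lay above 0 and 8 below, the median log2 fold change was -0.01, and none passed the test. Uchl5, a deubiquitinase subunit, lay furthest from 0 at 0.22 ± 0.12 (adjusted p = 0.589).

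KO hearts differed from WT hearts in 46 genes at an adjusted p under 0.05, 30 higher and 16 lower. These make up 0.222% of the tested genes, 0.145% up and 0.0773% down. The adjusted p comes from edgeR's quasi-likelihood test with Benjamini-Hochberg adjustment over all 20691 genes, and 1985 genes had an unadjusted p under 0.05. The 30 included a receptor and an executioner of cell death, anticoagulant and protease-related genes, and receptors found on endothelium. The 16 included genes of mast cell granules, a calpain, ion channel genes and a cardiac kinase. At least a 2-fold difference was reached by 18 of them. In all 46 the 3 KO hearts lay outside the range of the 3 WT hearts, as the test favours. Over all tested genes, all KO hearts lay above all WT hearts in 6.81% and below them in 5.87%. Genes separated in this way must have the same sign in litter 2 and in litter 3, as all 46 did.

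**Figure D1:**
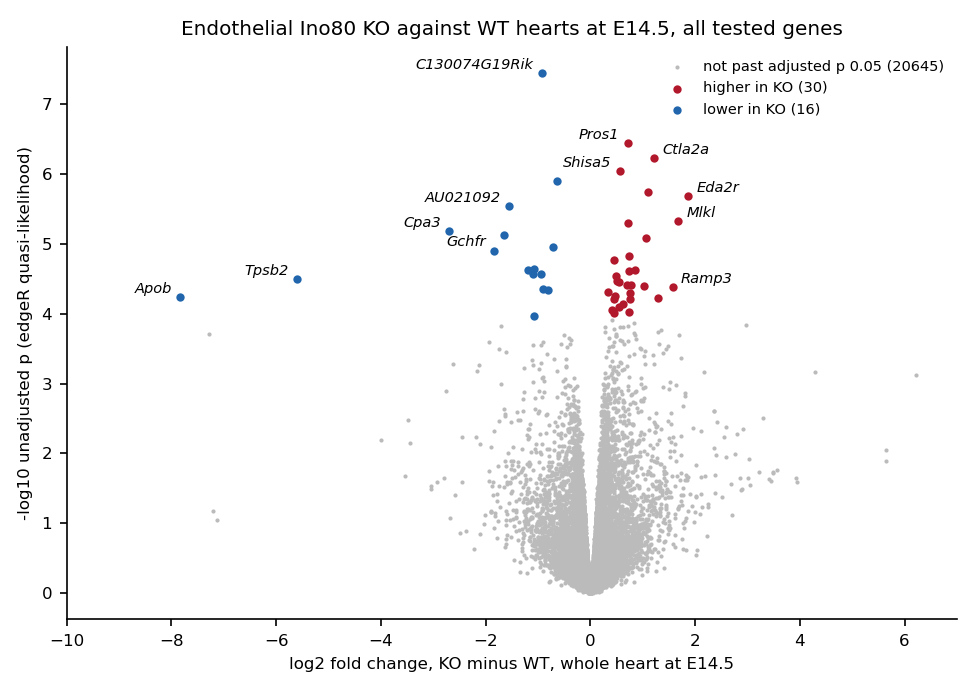
Each point is 1 of the 20691 tested genes, with the log2 fold change of 3 KO over 3 WT hearts at E14.5 on the horizontal axis and -log10 of the unadjusted edgeR p on the vertical axis. Red points are the 30 genes higher in KO and blue points the 16 lower genes at an adjusted p under 0.05. Folds beyond about 5 on either side come from genes at or near 0 CPM in 1 group and are not measured sizes.

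The count of 46 differed between fits and between sets of hearts. It was 92 (61 up and 31 down, 0.445% of genes) with litter as a block in the model, and all 46 were among them. In a fit of the 6 E14.5 libraries alone it was 2, Ctla2a and C130074G19Rik, with 4 residual degrees of freedom in place of 8. Leaving out 1 heart gave 13 without KO replicate 2, 23 without WT replicate 7, 10 without WT replicate 7.2 and 107 without KO replicate 1. It was 59 without WT replicate 8 and 35 without KO replicate 4. The genes that kept their calls whichever heart was left out were Pros1, Ctla2a, Shisa5, Ttc9 and Eda2r among those that rose and C130074G19Rik, Fam101b and AU021092 among those that fell. Of the 46, 25 kept the call in at least 3 of the 6 such fits, and Rgcc kept it in none.

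Among the genes that rose, Eda2r and Mlkl belong to cell death pathways. Eda2r, a receptor of the tumour necrosis factor family and a p53 target (chromosome X, 97333840 to 97377216), was at 4.68, 5.41 and 5.72 CPM in WT hearts 8, 7 and 7.2, against 27.7, 13.6 and 16.2 CPM in KO hearts 2, 4 and 1. It was highest in KO replicate 2, the other KO hearts were also well above every WT heart, and the log2 fold change was 1.86 ± 0.22 (adjusted p = 0.00616). Mlkl, the pseudokinase that breaches the membrane in necroptosis (chromosome 8, 111311797 to 111338177), was at 2.52, 2.07 and 2.11 CPM in WT and 10.2, 5.78 and 5.38 CPM in KO hearts in the same order. Again KO replicate 2 was highest and the groups did not overlap (1.67 ± 0.23, adjusted p = 0.0105). Its call was lost without WT replicate 7.2 (0.0726). Mlkl acts downstream of the kinases Ripk3 and Ripk1, which were at 0.71 ± 0.16 (adjusted p = 0.0982) and 0.34 ± 0.10 (0.217) and did not pass. Of the 17 tested cell death effectors Mlkl alone passed, with 11 above 0, 6 below and a list median of 0.03. In 6 of them all KO hearts were above all WT hearts, and in 1 all were below. Over all tested genes these shares were 6.81% and 5.87%. The list's mean level was 3.68, 3.67 and 3.55 log2 CPM in WT and 3.84, 3.80 and 3.73 in KO hearts, without overlap. Shisa5, an endoplasmic reticulum protein induced by p53 and by interferon (chromosome 9, 109038565 to 109057777), had little spread within groups, 27.4, 28.0 and 25.7 CPM in WT and 39.8, 41.5 and 38.8 CPM in KO hearts. It rose by 0.57 ± 0.07 (0.00465).

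Targets of p53, the transcription factor that answers DNA damage and other stress, lay above WT as a group but few members were called. Of 24 targets 22 were above 0, and their median was 0.22 on the log2 scale, beside a median of -0.01 and 48.1% above 0 over all tested genes. Eda2r was the 1 member that passed. In 12 of the 24 all KO hearts were above all WT hearts, beside 6.81% of all tested genes. Zmat3, an RNA-binding p53 target, was at 38.4, 43.1 and 34.4 CPM in WT and 66.8, 51.1 and 54.2 CPM in KO hearts (0.57 ± 0.11, adjusted p = 0.0699). Cdkn1a, which encodes the cell cycle inhibitor p21, was at 29.1, 26.7 and 28.5 CPM in WT and 67.5, 33.8 and 44.9 CPM in KO hearts (0.79 ± 0.19, 0.149). For both genes KO replicate 2 was the highest heart. Mdm2, which degrades p53 and is itself a target, was at 0.10 ± 0.06 (0.701). The mean log2 CPM of the list was 4.37, 4.40 and 4.38 in WT and 4.94, 4.62 and 4.67 in KO hearts, so the KO hearts lay above the WT range with KO replicate 2 at the top. Without that heart the list's median was 0.18. Cell cycle genes stayed near 0. S phase and E2F targets had a median of -0.04 and mitotic genes of 0.07, with no member called.

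Pros1, Ctla2a, Ramp3 and Plaur were also among the genes that rose. Pros1, which encodes the anticoagulant protein S (chromosome 16, 62854307 to 62929346), was at 19.8, 20.1 and 20.01 CPM in WT hearts 8, 7 and 7.2, against 36.7, 31.8 and 29.7 CPM in KO hearts 2, 4 and 1. The WT hearts were almost equal, every KO heart was far above them, and the gene rose by 0.71 ± 0.08 (adjusted p = 0.00369). Ctla2a, an inhibitor of cysteine proteases (chromosome 13, 60934155 to 60936625), was at 22.3, 24.7 and 25.6 CPM in WT and at 65.6, 47.7 and 54.4 CPM in KO hearts. It rose by 1.21 ± 0.13 (0.00404), with KO replicate 2 highest. Ramp3, which pairs with a calcitonin-type receptor to bind adrenomedullin (chromosome 11, 6658521 to 6677475), was at 1.84, 1.10 and 0.731 CPM in WT and 3.62, 3.54 and 3.66 CPM in KO hearts. The KO hearts were nearly equal while the WT hearts varied, and the gene rose by 1.57 ± 0.26 (0.0277). Plaur, the urokinase receptor, was at 4.76, 2.78 and 3.69 CPM in WT and at 10.3, 6.34 and 10.7 CPM in KO hearts (1.28 ± 0.22, 0.0319). The groups did not overlap, with KO replicate 4 the lowest KO heart.

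Further genes that rose included enzymes, receptors and signalling proteins. Hmox1, the heme-degrading enzyme induced by oxidative stress and by flow, was at 12.7, 12.6 and 11.3 CPM in WT and 21.8, 17.6 and 21.8 CPM in KO hearts (0.74 ± 0.12, adjusted p = 0.0241). Kit, the stem cell factor receptor of progenitor and mast cells, was at 21.9, 19.8 and 16.04 CPM in WT and 33.7, 32.7 and 27.8 CPM in KO hearts (0.71 ± 0.12, 0.0271). For both genes the lowest WT heart was WT replicate 7.2 and no KO heart reached the WT range. Gpr182, a chemokine-scavenging receptor of endothelium, rose by 0.76 ± 0.13 (0.0319), and Tnfaip2, a gene first described as induced by tumour necrosis factor in endothelium, rose by 0.74 ± 0.13 (0.0438). Rapgef5, an activator of Rap GTPases that strengthens endothelial junctions, rose by 0.48 ± 0.08 (0.0248), and the hyaluronan receptor gene Cd44 by 0.54 ± 0.09 (0.0269). St6gal1, which caps surface glycans with sialic acid, rose by 0.55 ± 0.10 (0.039) and Csgalnact1, which starts chondroitin sulfate chains, by 0.74 ± 0.11 (0.0194). These 8 genes each lost the call without at least 2 of the hearts, WT replicate 7.2 always among them.

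The rest of the 30 were of mixed function. Fabp5, a fatty acid chaperone found in capillary endothelium, was at 177, 173 and 166 CPM in WT and 327, 249 and 273 CPM in KO hearts. It rose by 0.72 ± 0.10 (adjusted p = 0.0105), and all KO hearts lay far above a narrow WT range. Gap43, a growth cone protein of neurons, rose by 1.06 ± 0.15 (0.0131). Ttc9 rose by 1.09 ± 0.14 (0.00616), from a mean of 9.03 ± 1.91 CPM (SD, n = 3) in WT to 19.2 ± 1.96 CPM (n = 3) in KO hearts. Further genes that rose were Mapk11 (p38 beta kinase, 0.85), Gngt2 (a G protein gamma subunit, 0.76), S100a11 (a calcium-binding protein, 0.50), Rab3d (a GTPase of secretory vesicles, 0.47), Fuca2 (a secreted fucosidase, 0.46) and Acsl3 (an acyl-CoA synthetase, 0.34). Gm12854, Gm5864 and Gm7665 also passed, at 0.44, 0.41 and 0.44. The annotation lists these 3 as processed pseudogenes, which can take reads of their parent genes, so their counts are uncertain, and they were named after their values were seen.

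Genes of heart muscle excitation moved in both directions. Kcne1, the regulatory subunit of the slow delayed rectifier potassium channel (chromosome 16, 92345982 to 92359468), was at 86.1, 96.2 and 89.9 CPM in WT hearts 8, 7 and 7.2, against 142, 120 and 158 CPM in KO hearts 2, 4 and 1. It rose by 0.63 ± 0.11 (adjusted p = 0.0363). Kcnd2, a pore subunit of the transient outward potassium channel, was at 12.9, 13.8 and 14.45 CPM in WT and 6.76, 9.17 and 6.15 CPM in KO hearts. It fell by 0.90 ± 0.15 (0.0283). Tnni3k, a cardiac kinase that binds troponin I (chromosome 3, 154786291 to 155055407), was at 85.3, 87.9 and 102 CPM in WT and 50.2, 49.5 and 57.7 CPM in KO hearts. It fell by 0.80 ± 0.13 (0.0283), and for each of these genes every KO heart lay outside the WT range. Cacng6, a calcium channel gamma subunit, fell by 1.09 ± 0.17 (0.0241).

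The lists of heart muscle genes had medians from -0.17 to 0.20. Of 17 conduction and pacemaker genes 4 lay above 0, the median was -0.17 (-0.08 without KO replicate 2), and Kcne1 was the 1 member called. Hcn4, the pacemaker channel, was at 20.1, 27.3 and 15.3 CPM in WT and 13.4, 15.1 and 12.9 CPM in KO hearts (-0.60 ± 0.16, adjusted p = 0.2), and the T-type calcium channel gene Cacna1g was at -0.63 ± 0.14 (0.105). Of 20 sarcomere genes 19 lay below 0 with a median of -0.11 and none called. Within litter 2 their median was -0.22, and within litter 3 it was 0.05, so the litters differed in sign. Without KO replicate 1 it was -0.22. Of 14 calcium handling genes 12 lay below 0 (median -0.10, or -0.21 without KO replicate 1 and -0.15 without WT replicate 8), including the sarcoplasmic reticulum pump gene Atp2a2 at -0.36 ± 0.12 (0.338). Compact layer genes had a median of -0.04 and trabecular genes of 0.20 (0.09 without KO replicate 4 and 0.34 without WT replicate 7), with none called. Nppa, the atrial natriuretic peptide, was at 164, 289 and 165 CPM in WT and 398, 239 and 383 CPM in KO hearts, and the groups overlapped (0.72 ± 0.25, 0.376).

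The gene with the smallest p of all was C130074G19Rik, a protein-coding gene known by its clone name (chromosome 1, 184871926 to 184883218). It was at 23.8, 24.8 and 27.2 CPM in WT hearts 8, 7 and 7.2, against 13.49, 12.3 and 14.2 CPM in KO hearts 2, 4 and 1, and fell by 0.92 ± 0.08 (adjusted p = 0.000735). AU021092, likewise named for a clone, was at 3.80, 3.64 and 3.56 CPM in WT and 1.09, 1.32 and 1.33 CPM in KO hearts (-1.56 ± 0.20, 0.00737). In both genes each group varied little and the groups lay far apart; both were named after their values were seen. Fam101b, which encodes a partner of the actin cross-linker filamin, was at 28.9, 33.6 and 32.1 CPM in WT and 20.2, 19.9 and 20.9 CPM in KO hearts. It fell by 0.63 ± 0.08 (0.00518). Ephb1, a receptor for ephrin ligands on neighbouring cells (chromosome 9, 101922128 to 102354693), was at 5.83, 5.79 and 5.42 CPM in WT and 1.90, 2.55 and 2.99 CPM in KO hearts. It fell by 1.19 ± 0.19 (0.0241). Cpne5, a calcium-dependent membrane-binding protein, fell by 1.07 ± 0.16 (0.0241), and the transmembrane protein gene Tmem255a by 0.95 ± 0.15 (0.0241).

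Among genes of mast cell granules, Cpa3 and Tpsb2 fell in KO hearts. Cpa3, the mast cell carboxypeptidase (chromosome 3, 20215620 to 20242181), was at 4.72, 4.69 and 2.94 CPM in WT hearts 8, 7 and 7.2, against 0.404, 0.998 and 0.487 CPM in KO hearts 2, 4 and 1. It fell by 2.69 ± 0.38 (adjusted p = 0.0123), and every KO heart lay far below every WT heart. Tpsb2, a mast cell tryptase (chromosome 17, 25366305 to 25369098), was at 1.05, 1.10 and 1.36 CPM in WT and at 0, 0.0616 and 0 CPM in KO hearts. It fell (0.0265), with 192 reads in the WT and 5 in the KO libraries, a ratio of 50 per library size (95% exact binomial interval 21.1 to 156, counting error only). Tpsab1, the neighbouring tryptase, had 36 reads in WT and none in KO hearts, at least 15.6-fold lower against a floor of 3 counts over the group, and did not pass (0.0644). The chymase gene Cma1, named to complete the list, was at -2.14 ± 0.47 (0.0965).
Of the 8 tested mast cell genes, 2 fell, 1 rose (Kit) and 5 did not pass, where 0.0773% of all tested genes fell and 0.145% rose. Hdc (0.59), Gata2 (0.14) and Mcpt4 (0.46), also on the list, lay above 0. The list's mean level was 1.12, 1.36 and 0.85 log2 CPM in WT and -0.75, 0.14 and -0.42 in KO hearts, without overlap.

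Apob, a lipoprotein gene of liver and yolk sac, had 52 reads in the WT and none in the KO libraries (adjusted p = 0.0319), at least 22.6-fold lower against the same floor. WT replicate 7 was highest at 0.579 CPM, and all levels were low. The other liver markers moved with it in part: Alb was at 0.0214, 1.62 and 0.390 CPM in WT and at 0, 0 and 0.398 CPM in KO hearts (0.689). The mean level of 8 liver genes was -2.04, -0.49 and -1.16 log2 CPM in WT and -3.27, -2.62 and -1.42 in KO hearts, and their part in the Apob result was not tested.

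**Figure D2:**
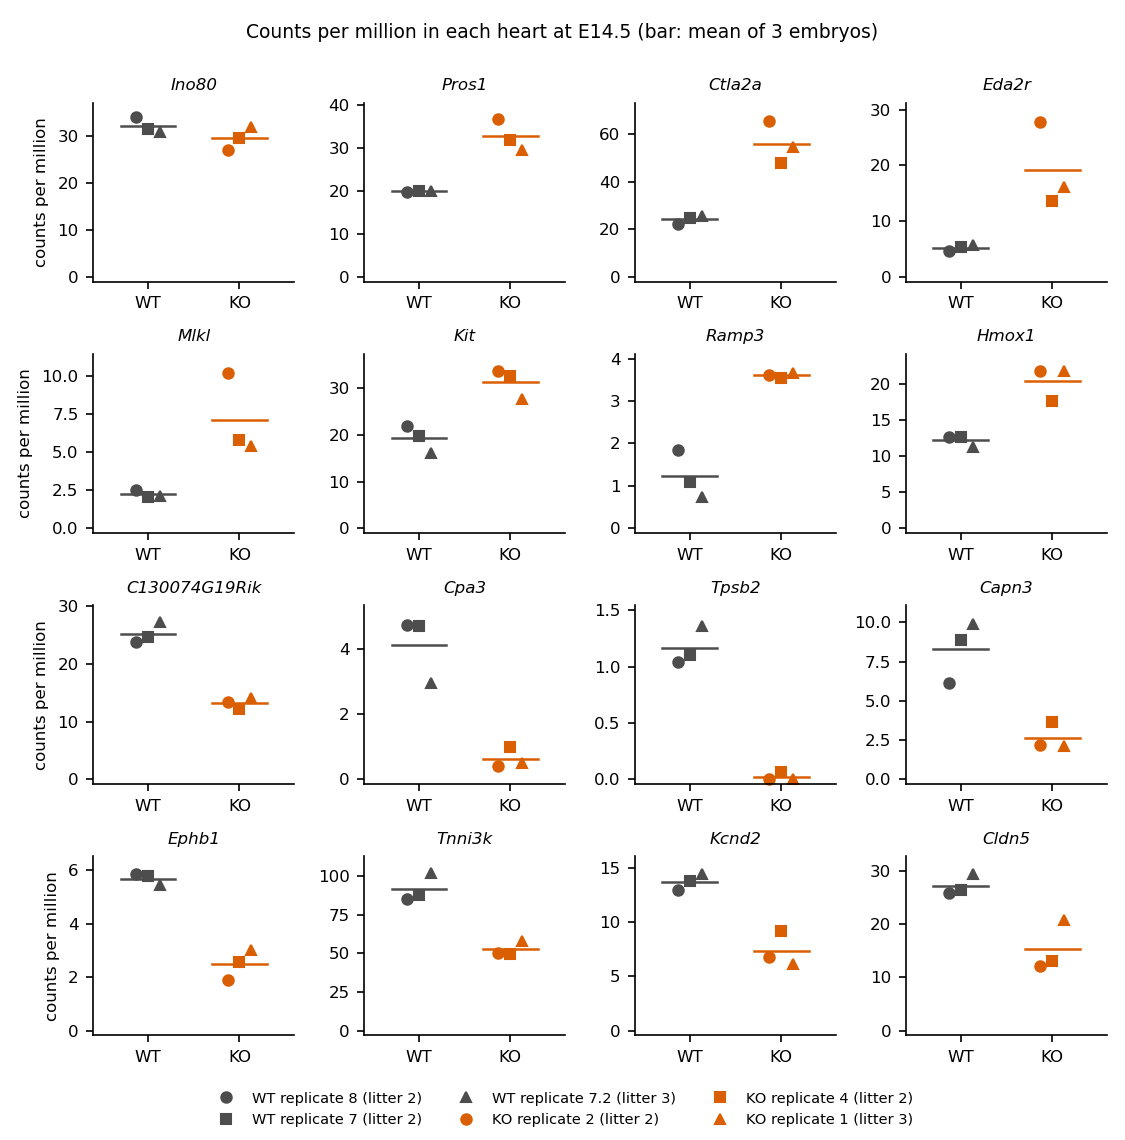
CPM of 16 genes (1 panel each) in the 3 WT (grey) and 3 KO hearts (orange) at E14.5, with a symbol per embryo and a bar at the mean of 3. Ino80 overlaps between the groups, at 27.0 to 33.9 CPM, while the 14 called genes shown and Cldn5, which did not pass without the litter block, separate the KO from the WT hearts.

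No general marker of endothelium passed the test, and most lay slightly above WT. Of 24 pan-endothelial genes 18 lay above 0 with a median of 0.21, and none passed the test. Kdr and Tek, the receptors for vascular endothelial growth factor and angiopoietin, were at 0.24 ± 0.10 (adjusted p = 0.437) and 0.17 ± 0.10 (0.679), and Cdh5, the adherens junction cadherin, at 0.12 ± 0.08 (0.733). Eng, a co-receptor for transforming growth factor beta, was at 181, 204 and 163 CPM in WT hearts 8, 7 and 7.2, against 254, 233 and 247 CPM in KO hearts 2, 4 and 1 (0.42 ± 0.08, 0.0533). Against this direction, the tight junction gene Cldn5 (chromosome 16, 18776847 to 18778262) was at 25.8, 26.4 and 29.5 CPM in WT and 12.2, 13.05 and 20.8 CPM in KO hearts (-0.83 ± 0.17, 0.0785). Pecam1, another junctional adhesion molecule, was at 157, 159 and 148 CPM in WT and 113, 120 and 138 CPM in KO hearts (-0.32 ± 0.08, 0.118). For Eng, Cldn5 and Pecam1 the groups did not overlap, and for Cldn5 and Pecam1 KO replicate 1 lay closest to the WT hearts.

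By vessel bed, the members again divided. Of 17 coronary artery and capillary genes 8 lay above 0 and 9 below (median -0.03). Rgcc, a cell cycle regulator of capillary endothelium, was at 5.38, 6.09 and 6.17 CPM in WT and 2.60, 2.81 and 2.99 CPM in KO hearts and fell by 1.07 ± 0.20 (adjusted p = 0.0482), the call that no left-out fit kept. Cxcr4, the chemokine receptor of migrating coronary endothelium, was at -0.48 ± 0.26 (0.628), and the Notch ligand gene Dll4 at 0.21 ± 0.11 (0.608). Aplnr, the apelin receptor of venous and sprouting coronary endothelium, was at 45.3, 60.9 and 58.0 CPM in WT and 20.9, 27.6 and 38.7 CPM in KO hearts, without overlap (-0.91 ± 0.20, 0.118). Of 12 endocardial genes 8 lay above 0 (median 0.15), and the median was -0.03 without KO replicate 4 and 0.04 without WT replicate 7.2. Cytl1 of that list was at 6.28, 7.04 and 9.95 CPM in WT and 0.808, 2.55 and 2.67 CPM in KO hearts (-1.94 ± 0.38, 0.0699), while Npr3, the natriuretic peptide clearance receptor, was at 0.31 ± 0.13 (0.47) and Nfatc1 at 0.21 ± 0.16 (0.772). In the Notch pathway (18 genes, median -0.05), the fringe gene Lfng was at 7.198, 6.83 and 6.01 CPM in WT and 3.98, 3.89 and 4.43 CPM in KO hearts (-0.70 ± 0.15, 0.0872).

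Genes listed as signals from endothelium to muscle lay mostly above WT levels, with none called. Of 20 such genes 16 were above 0, with a median of 0.29, or 0.16 without KO replicate 2. Inhbb, a subunit of activin B, was at 5.68, 3.40 and 2.76 CPM in WT and 12.1, 10.003 and 6.68 CPM in KO hearts (1.29 ± 0.25, adjusted p = 0.0644). Igf1 was at 77.8, 74.4 and 68.2 CPM in WT and 95.1, 118 and 97.8 CPM in KO hearts (0.50 ± 0.10, 0.076). Bmp10, the trabecular growth factor, is also on the trabecular and atrial muscle lists and was at 0.51 ± 0.15 (0.23). Whole-heart RNA does not show which cells made these transcripts. The neuregulin gene Nrg1 was at 0.80 ± 0.28 (0.338) with overlapping groups. The basement membrane collagen gene Col15a1 went the other way, from 73.5, 63.0 and 69.7 CPM in WT to 32.3, 29.4 and 53.5 CPM in KO hearts (-0.84 ± 0.22, 0.192). In the overlapping list of transforming growth factor beta, activin and BMP genes, 18 of 25 lay above 0 (median 0.22). Tgfb1 was at 29.3, 30.1 and 25.1 CPM in WT and 38.1, 38.6 and 38.5 CPM in KO hearts (0.45 ± 0.09, 0.0614), and Tgfbi, a matrix protein it induces, at 1.04 ± 0.20 (0.076). Epicardial genes, markers of the outer layer that Tie2 does not target, had a median of 0.19 with 9 of 12 above 0, and of 0.11 without KO replicate 2. Wt1, their defining transcription factor, was at 23.1, 21.2 and 20.1 CPM in WT and 34.9, 28.8 and 27.0 CPM in KO hearts (0.50 ± 0.10, 0.0644).

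Interferon response genes showed the largest median of the 53 gene lists, and they divided the KO hearts. Of 30 genes 27 lay above 0, the median log2 fold change was 1.35, and none passed over all genes. In 16 of the 30 all KO hearts were above all WT hearts, beside 6.81% of all tested genes. The mean level of the list was 0.82, 0.90 and 0.96 log2 CPM in WT replicates 8, 7 and 7.2, 2.51 and 2.36 in KO replicates 2 and 4, and 1.02 in KO replicate 1. The littermates KO 2 and KO 4 were thus far above the WT hearts, while KO replicate 1 of litter 3 lay just beyond them. The median difference was 1.62 within litter 2 and 0.15 within litter 3, which holds 1 heart of each genotype. Litter, and with it any cause that differs between litters, cannot be told apart here from variation between embryos.

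KO replicate 1 was the lowest KO heart for the next genes too. Bst2, which tethers budding virus particles (chromosome 8, 71534255 to 71537456), was at 9.06, 10.5 and 8.93 CPM in WT and 34.1, 21.7 and 16.8 CPM in KO hearts (1.35 ± 0.24, adjusted p = 0.0626). Isg15, the ubiquitin-like interferon product (chromosome 4, 156199424 to 156200818), was at 1.32, 1.08 and 0.731 CPM in WT and 8.66, 6.04 and 1.28 CPM in KO hearts (2.35 ± 0.60, 0.187). Irf7, a transcription factor that amplifies the response, was at 0.961, 1.27 and 0.974 CPM in WT and 4.37, 5.17 and 1.67 CPM in KO hearts (1.81 ± 0.44, 0.153). For Bst2 and Irf7 all KO hearts exceeded the WT hearts, whereas for Isg15 KO replicate 1 lay within the WT range. Ifih1, a sensor of double-stranded RNA, was at 1.69 ± 0.33 (0.0644) and Ifitm3, which blocks virus entry, at 1.44 ± 0.27 (0.0733). Lgals9, which encodes galectin 9, a glycan-binding protein that interferon can induce (chromosome 11, 78962974 to 78984946), is not on the list and did pass. It was at 31.5, 32.3 and 30.9 CPM in WT and 78.8, 66.9 and 46.9 CPM in KO hearts and rose by 1.02 ± 0.16 (0.0271), again with KO replicate 1 lowest of the KO hearts. Lgals9 kept its call in 1 of the 6 fits with a heart left out.

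Genes of class I antigen presentation, which cells raise under interferon, separated all 3 KO hearts from the WT hearts. The mean level of 15 such genes was 2.22, 2.43 and 2.35 log2 CPM in WT and 2.78, 2.78 and 2.66 in KO hearts. Their median log2 fold change was 0.41, 14 of 15 lay above 0 and none passed. B2m, the light chain of the class I molecule, was at 70.7, 70.2 and 71.0 CPM in WT and 105, 99.7 and 76.0 CPM in KO hearts (0.41 ± 0.10, adjusted p = 0.146). KO replicate 1 was again the lowest KO heart, though above all WT hearts. Tap1, the peptide transporter, was at 0.79 ± 0.27 (0.331). The complement and coagulation list had all 14 members above 0 (median 0.39, none called), with the plasminogen activator gene Plat at 0.39 ± 0.09 (0.113).

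**Figure D3:**
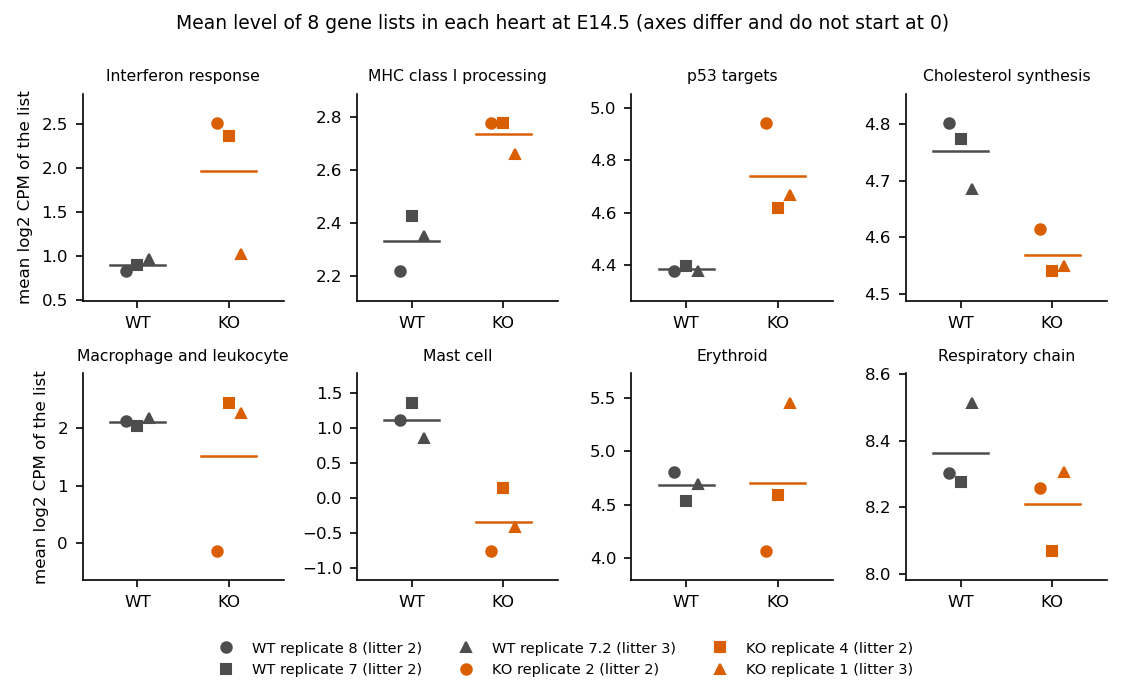
Mean log2 CPM of 8 gene lists in each heart at E14.5, with grey symbols for WT, orange symbols for KO, a symbol shape per embryo and a bar at the group mean; axes differ between panels and do not start at 0. KO replicate 1 sits at 1.02 for interferon genes, near the WT hearts, and KO replicate 2 sits at -0.14 for macrophage genes, apart from the other 5 hearts.

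The promoters of 4 of these genes are shown because the interferon-stimulated response element is the sequence through which type I interferon acts. Each is 300 bases on the strand of the gene, 250 before and 50 after the start, from RefSeq on GRCm38.p6. Capitals mark the core GAAANNGAA, searched on both strands, where overlapping matches run together and matches on the opposite strand read as the reverse complement. Isg15 and Bst2 are from the interferon list, and Lgals9 and Shisa5 are the genes that rose and hold the core.
Isg15 (chr4:156200769-156201068, minus strand): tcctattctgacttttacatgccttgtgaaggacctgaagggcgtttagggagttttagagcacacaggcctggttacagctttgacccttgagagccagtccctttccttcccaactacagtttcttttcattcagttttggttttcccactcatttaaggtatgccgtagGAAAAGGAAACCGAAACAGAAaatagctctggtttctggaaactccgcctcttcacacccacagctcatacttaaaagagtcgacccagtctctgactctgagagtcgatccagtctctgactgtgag
Bst2 (chr8:71537423-71537722, minus strand): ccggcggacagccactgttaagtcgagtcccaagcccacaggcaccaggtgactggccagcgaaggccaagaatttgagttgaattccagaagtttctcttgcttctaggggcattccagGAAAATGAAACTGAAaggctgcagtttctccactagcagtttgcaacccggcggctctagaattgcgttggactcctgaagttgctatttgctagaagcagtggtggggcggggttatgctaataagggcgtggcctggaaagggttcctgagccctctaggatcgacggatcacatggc
Lgals9 (chr11:78984875-78985174, minus strand): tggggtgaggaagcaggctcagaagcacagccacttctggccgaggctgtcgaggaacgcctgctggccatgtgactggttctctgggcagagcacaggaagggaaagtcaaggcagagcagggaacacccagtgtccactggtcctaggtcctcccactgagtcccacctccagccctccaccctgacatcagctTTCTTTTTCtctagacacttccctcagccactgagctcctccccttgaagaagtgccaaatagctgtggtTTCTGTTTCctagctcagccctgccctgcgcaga
Shisa5 (chr9:109054616-109054915, plus strand): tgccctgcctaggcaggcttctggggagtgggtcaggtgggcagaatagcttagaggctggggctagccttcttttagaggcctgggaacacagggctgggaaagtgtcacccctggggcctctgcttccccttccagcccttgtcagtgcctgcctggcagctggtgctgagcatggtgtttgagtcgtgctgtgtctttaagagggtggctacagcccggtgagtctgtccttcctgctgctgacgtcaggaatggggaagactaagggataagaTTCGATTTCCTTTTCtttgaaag

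The core was present in 13 of the 19 interferon list promoters in the RefSeq table (68.4%), 2 of the 19 promoters found for the 30 genes that rose (10.5%) and 1 of the 13 found for the 16 that fell (7.69%), Kcnd2. Among all 27025 promoters of that length it was present in 9.76%. In Isg15 and Bst2 the matches lie upstream of the start, and in Shisa5 downstream of it. The Shisa5 start in the RefSeq table lies inside the gene's span given above, at a shorter transcript. Outside Lgals9 and Shisa5, the promoters found for the genes that rose do not hold these letters in this window. The YY1 motif AAGATGGC, searched on both strands, was in none of the 19 and none of the 13, and in 3.19% of all promoters. These matches are letters in a window and not measured binding.

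Oxygen and fuel genes lay slightly to either side of WT. Of 22 hypoxia response genes 20 lay above 0 (median 0.28) and of 18 glycolysis genes 15 (median 0.19), none called. P4ha1, a collagen prolyl hydroxylase, was at 66.0, 59.1 and 67.8 CPM in WT and 112, 82.4 and 89.3 CPM in KO hearts (0.56 ± 0.12, adjusted p = 0.0936). Pfkl, a phosphofructokinase of glycolysis, was at 0.27 ± 0.08 (0.226), and Pgk1, phosphoglycerate kinase, was at 882, 765 and 807 CPM in WT and 1265, 940 and 939 CPM in KO hearts (0.36 ± 0.10, 0.226). KO replicate 2 was highest for P4ha1 and Pgk1, and without it the hypoxia median was 0.18. All 29 nuclear-encoded respiratory chain genes lay below 0 (median -0.16, range -0.24 to -0.09), as did 19 of 20 genes of the mitochondrial ribosome (median -0.10) and 23 of 26 genes of fatty acid uptake and oxidation (median -0.15). No member of these 3 lists passed. Hadh, a dehydrogenase of fatty acid oxidation, was at 240, 222 and 274 CPM in WT and 205, 199 and 206 CPM in KO hearts (-0.27 ± 0.08, 0.204), and Ndufa4 of the respiratory chain was at -0.20 ± 0.08 (0.421). Mean respiratory chain levels overlapped between the groups, at 8.27 to 8.51 log2 CPM in WT and 8.07 to 8.31 in KO hearts, and WT replicate 7.2 was the highest heart. Without that heart the respiratory chain median was -0.08 and that of fatty acid genes -0.07, and without KO replicate 4 the respiratory chain median was -0.09. The mitochondrial ribosome median was -0.15 without KO replicate 2. All 15 cholesterol synthesis genes also lay below 0 (median -0.13), with Insig1, the sterol sensor, at 37.2, 36.6 and 32.6 CPM in WT and 31.8, 25.9 and 27.0 CPM in KO hearts (-0.33 ± 0.10, 0.226).

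**Figure D4:**
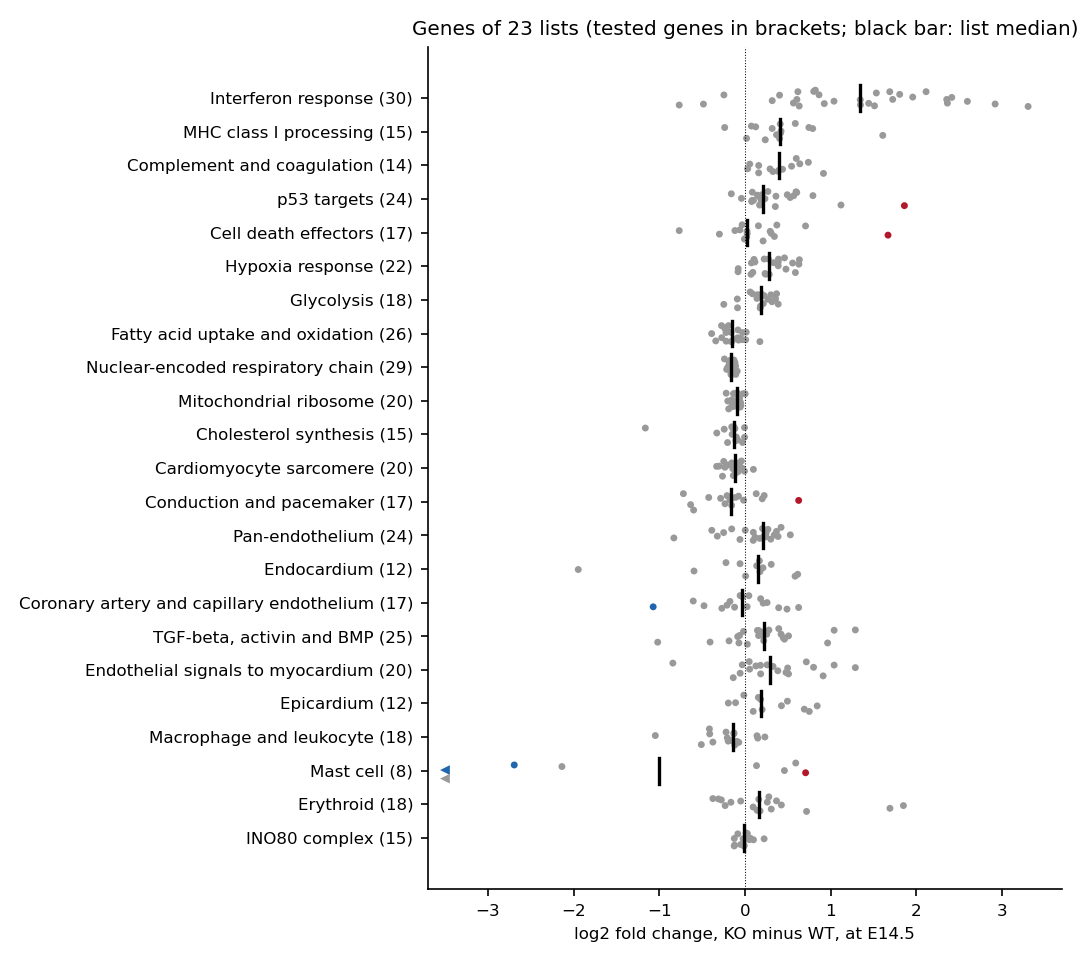
Each point is a tested gene of 1 of 23 lists, at its log2 fold change of KO over WT hearts at E14.5; red and blue points are genes called higher and lower, black bars are list medians, and triangles at the left edge stand for 2 tryptase genes beyond it. Interferon response genes reach furthest to the right (median 1.35), while the 29 respiratory chain genes form a narrow band below 0.

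Blood-derived cells are part of the Tie2 lineage and were followed by their markers. Of 18 macrophage and leukocyte genes 15 lay below 0 with a median of -0.14, and none passed. The list's mean level was 2.13, 2.04 and 2.19 log2 CPM in WT replicates 8, 7 and 7.2, -0.14 in KO replicate 2, and 2.45 and 2.26 in KO replicates 4 and 1. The low KO value at E14.5 came from 1 heart, and without it the median was 0.30. It was -0.50 without KO replicate 4 and -0.39 without KO replicate 1. C1qa, a complement gene of macrophages, was at 6.75, 6.42 and 6.14 CPM in WT and at 0.497, 6.98 and 6.96 CPM in KO hearts (-0.41 ± 0.87, adjusted p = 0.959). Csf1r, the macrophage growth factor receptor, was at 19.1, 17.6 and 15.0 CPM in WT and 4.63, 23.3 and 19.3 CPM in KO hearts (-0.13 ± 0.52, 0.985). Both were low in KO replicate 2 alone. That heart, with macrophage markers at their lowest, had interferon genes at their highest, and KO replicate 4 had both at high levels. At E13.5 the macrophage list's mean level was 2.26, 2.28 and 2.33 log2 CPM in WT hearts. In the E13.5 KO hearts it was 0.93, -0.92 and 1.56, without overlap, and all 18 genes lay below 0 (median -1.45).

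Red cell genes had their highest mean level in KO replicate 1. The median of 18 erythroid genes was 0.17 over all hearts and -0.69 without KO replicate 1. It was -0.53 within litter 2 and 0.73 within litter 3, and their mean level was 4.07 and 4.59 log2 CPM in KO replicates 2 and 4 and 5.46 in KO replicate 1, against 4.53 to 4.81 in WT hearts. Hbb-y, an embryonic globin, was at 314, 102 and 43.1 CPM in WT and 876, 451 and 155 CPM in KO hearts (1.69 ± 0.77, adjusted p = 0.542). In each litter the KO hearts were above their WT littermates, while the groups overlapped between litters. With the erythroid level as a covariate 57 genes passed, 44 of the 46 among them.

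The litter block brought in 46 further genes, each of them with an adjusted p above 0.05 without it. Plvap, the protein of fenestral diaphragms in endothelium (chromosome 8, 71497765 to 71511752), was at 72.2 and 76.8 CPM in the litter 2 WT hearts and 108 CPM in both litter 2 KO hearts, against 50.1 and 82.3 CPM in the WT and KO heart of litter 3. Within both litters the KO hearts were higher (0.59 ± 0.14, adjusted p = 0.143 without and 0.00158 with the block). Adh6b, an alcohol dehydrogenase (chromosome 3, 138341775 to 138358861), was at 2.84, 4.48 and 1.23 CPM in WT and 30.4, 23.8 and 12.8 CPM in KO hearts (2.98 ± 0.49, 0.0593 and 0.00527). Inhbb passed as well (0.00527), and so did Klhl4 (0.63, 0.0132), Ccdc3 (0.84, 0.00363) and Pak6 (0.44, 0.0139). Among genes that passed lower were Cldn5 (0.00957), the junctional adhesion gene Jam2 (-0.90, 0.0198), C1qtnf9 (-1.70, 0.0254), Itpka (-1.09, 0.0264), Aoc3 (-1.31, 0.0145) and Ablim3 (-0.76, 0.0254). The endothelial genes Eng (0.0332), Lyl1 (0.0497) and Aplnr (0.041), the epicardial gene Wt1 (0.0309), the interferon gene Bst2 (0.0357) and the p53 target Zmat3 (0.0422) passed with the block too. In a fit of the 6 libraries alone the block gave 11 genes, 8 of them among the 46.

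Genes close to the disrupted locus were looked at because a flanking segment of chromosome 2 travels with the Ino80 allele. Of 119 tested genes starting within 5 Mb of Ino80, 2 were called (1.68%), and within 20 Mb 4 of 354 (1.13%), beside 41 of 18779 (0.218%) farther than 40 Mb or on another chromosome. Gchfr, the feedback regulator of the first enzyme of tetrahydrobiopterin synthesis (chromosome 2, 119167773 to 119172390; 0.205 Mb from Ino80), was at 2.52, 5.36 and 4.89 CPM in WT hearts 8, 7 and 7.2, against 1.13, 1.33 and 1.12 CPM in KO hearts 2, 4 and 1. It fell by 1.83 ± 0.27 (adjusted p = 0.0171), with nearly equal KO hearts and WT replicate 8 lowest of the WT hearts. Capn3, a muscle calpain (chromosome 2, 120456019 to 120504913; 1.08 Mb away), was at 6.17, 8.91 and 9.89 CPM in WT and 2.16, 3.68 and 2.14 CPM in KO hearts and fell by 1.64 ± 0.23 (0.0126). Tcp11l1 (14.7 Mb away) fell by 0.71 ± 0.10 (0.0164), and Cd44, which rose, lies 16.6 Mb away. Strain differences around the allele cannot be told apart here from an effect of the disruption on these 4 genes.

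Set beside the E13.5 hearts, with which no library is shared though the model's estimate of the spread is, most of the 46 genes lay on the same side. At E13.5, 22 genes were called (0.106%), and 11 of them were among the 46. An unadjusted p under 0.05 at E13.5 with the E14.5 direction was found for 35 of the 46, beside 10.3% of all genes with such a p in either direction. The direction was shared by 45, and the exception was Acsl3 (0.34 at E14.5, -0.02 at E13.5). The share of all tested genes with the same direction at both stages is not given here. The 30 genes that rose had a median log2 fold change of 0.73 at E14.5 and 0.33 at E13.5, and the 16 that fell of -1.08 and -1.18. The genes were chosen by their E14.5 values, so these medians are a description.

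Some genes were nearly equal at both stages and others were not. Cpa3 was at -2.69 at E14.5 and -2.61 at E13.5, C130074G19Rik at -0.92 and -0.96, and Ctla2a at 1.21 and 1.02. Cpne5 was at -1.07 and -0.26, Hmox1 at 0.74 and 0.13, Ramp3 at 1.57 and 0.35 and Kit at 0.71 and 0.20. The difference of the effects, tested as an interaction of genotype and stage, passed for 0% of genes in edgeR (none of 20691, smallest adjusted p 0.997) and for none in DESeq2, with 746 and 897 genes at an unadjusted p under 0.05. Of the 46, 19 had such a p in edgeR. These genes were chosen by their E14.5 effect, which is part of the interaction, so small values are favoured among them. The count is a description only. Stage and litter cannot be told apart in the interaction test, since the E13.5 hearts are all of litter 1.

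**Figure D5:**
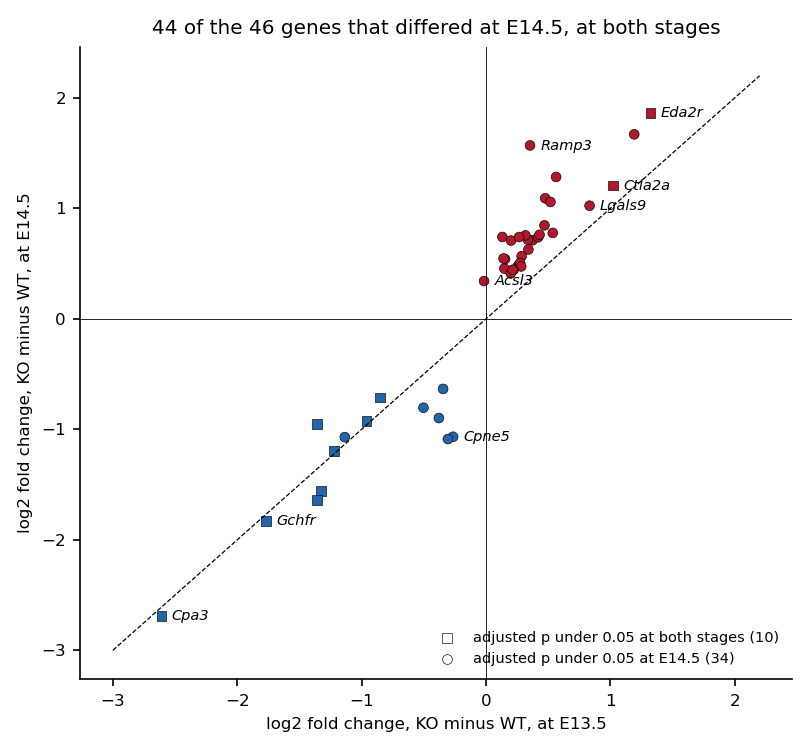
Log2 fold change of KO over WT at E13.5 (horizontal) and E14.5 (vertical) for 44 of the 46 genes called at E14.5; Apob and Tpsb2, with no or almost no reads in KO hearts, are left out, squares passed at both stages and the dashed line marks equal values. All but Acsl3 lie on the same side of 0 at both stages, and the red points lie mostly above the line.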

How the data were processed

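RNA was measured in 12 whole mouse hearts, and the deposited table holds raw read counts per gene that the authors made, as whole numbers in 45664 rows. STAR 2.5.3a, featureCounts, DESeq2, DESeq and the build GRCm38 are named per the submitters' processing notes, without their order or settings. The total counts per E14.5 library, 46556032 to 79247152, set the precision of low genes. Of these rows 27 have symbols turned into dates, 2 repeat a symbol, and the 37 mitochondrial rows are all 0.

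Genes were filtered with filterByExpr, scaled by TMM and fitted with edgeR 4.0.16 (R 4.3.3, limma 3.58.1) as 4 group means over 12 libraries, with a robust quasi-likelihood fit and 8 residual degrees of freedom (biological coefficient of variation 17.1%). Adjusted p-values are Benjamini-Hochberg values over all 20691 genes, with a threshold of 0.05. Each SE was taken as |log2 fold change| over the square root of the F statistic. CPM use TMM-scaled library sizes, and list levels are means of log2 CPM with a prior count of 2. Differences within litters are differences of such log2 CPM.

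By rule, the text could name the called genes ranking in the top 12 by fold in each direction (mean level 1 CPM or more), the 6 called genes with the smallest p each way, up to 3 list members with the smallest p in the direction of the list's median and 1 in the other, up to 6 genes each way called only with the litter block, and a fixed panel of vessel, muscle, blood and stress genes. Clone-named genes and pseudogenes fell outside it, and the remaining called genes, Cma1 and Tpsab1 were named to complete a count. Not every called gene is reported here. The members and lists (53 lists, 775 distinct genes, 749 tested) were chosen with earlier results of these data known. Litters group the hearts by their labels. Residuals of WT with KO hearts correlated at 0.00399 within and -0.00501 between litters. Residuals cancel within each group, so these values are tied to each other and cannot show whether litter had an effect. Gene positions come from GENCODE M21 (GRCm38), found by symbol for 19512 tested genes (94.3%). Promoters are from RefSeq (GRCm38.p6), 250 bases before to 50 after the start. The fits were tested on simulated data. Alternatives were RLE size factors, DESeq2 1.42.0, no low-count filter, the litter block, terms for Y-linked and erythroid expression, the 6 libraries alone and leaving out each heart or litter 3. A fit without robust estimation was added after seeing the data.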

Additional observations from a re-analysis of the deposited data

Results flagged for a closer look

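For 2 of 52 gene lists and 4 of 267 named genes examined, every KO heart lay on one side of its WT hearts at E14.5 and every KO heart on the opposite side at E13.5. Over all 20691 tested genes 55 showed this pattern (0.266%). For the list levels this difference between stages was not tested, and stage cannot be told apart from litter in any of them. The mean level of shear-responsive endothelial genes was higher in KO by 0.171 log2 CPM at E14.5, and the difference was -0.0907 at E13.5. The mean level of cholesterol synthesis genes differed by -0.185 at E14.5 and 0.165 at E13.5. Among single genes, Insig1, the sterol sensor, was at -0.331 on the log2 scale at E14.5 and 0.233 at E13.5 (unadjusted p of edgeR's interaction test = 0.0011). Cyp51, an enzyme of cholesterol synthesis, was at -0.244 and 0.125 (0.0012). Nr2f2, a transcription factor of veins, was at 0.217 and -0.203 (0.00097). Creld2, a chaperone of the endoplasmic reticulum, was at -0.0822 and 0.0522. These genes were picked for lying on opposite sides at the stages, which is the difference that the interaction tests. Small unadjusted p-values are thus favoured among them. Insig1 and Cyp51 are also members of the cholesterol list. No gene passed the interaction test after adjustment in edgeR.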

How the results depend on the processing

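The count of 46 genes at E14.5 became 343 in DESeq2 (240 up, 103 down), 77 without the low-count filter (54 up, 23 down) and 2 in the 6 E14.5 libraries alone (1 up, 1 down). With litter as a replicate block it was 92 (61 up, 31 down), and with the block in the 6 libraries alone 11 (4 up, 7 down). Leaving out 1 heart gave 10 to 107, with 13 and 23 without KO replicate 2 and WT replicate 7. It was 45 with RLE size factors, 59 with a Y-linked term, 57 with an erythroid covariate, 61 without litter 3 (20 of the 46 among them) and 50 without robust estimation (35 up, 15 down). All 46 genes separated KO from WT hearts, so leaving out hearts could hardly turn their sign. None of them changed sign in these settings. The medians of 23 of the 53 lists did in at least 1 setting, 22 of them on leaving out 1 heart; they include lists with medians near 0, such as coronary, Notch, compact layer, cell cycle and INO80 complex genes. The erythroid median of 0.17 became -0.16 with the litter block. The interaction of genotype and stage gave 0 genes in each of these settings that could be fitted. The cause of these differences was not tested. With 3 embryos a group, some differences under 2-fold passed and others of like size did not. For genes near 1 CPM counting error adds to the spread between embryos.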

Other observations

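Several lists not described above had small medians at E14.5. Of 17 genes of the integrated stress response 14 lay above 0 (median 0.05, or 0.03 to 0.15 leaving out 1 heart), and Trib3, a stress-induced pseudokinase, was at 1.01 on the log2 scale (edgeR adjusted p = 0.0825). Of 14 inflammation genes 11 lay above 0 (median 0.23, or 0.11 without KO replicate 1), with Icam1, the leukocyte adhesion receptor, at 0.73 (0.143). Basement membrane genes had a median difference of -0.34 within litter 2 and 0.51 within litter 3. No member of these 3 lists passed the test.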
